A study of Mus musculus and Rattus norvegicus with 32 samples.

Results

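Transcripts of the mitochondrial respiratory chain were followed in liver from male B6C3F1 mice, a hybrid laboratory strain, and male SD (Sprague-Dawley) rats given trichloroethylene (TCE), a chlorinated solvent. The set held every probe set whose single annotated gene symbol began with Nduf, Uqcr, Atp5 or Cox4 to Cox8, or was Sdha, Sdhb, Sdhc, Sdhd or Cyc1. It comprised 100 of 12422 mouse probe sets, for 72 of 8251 named genes, and 101 of 8740 rat probe sets, for 55 of 4736 named genes. By complex, the mouse arrays gave 42 probe sets (31 genes) for complex I, 4 (4) for complex II, 9 (8) for complex III, 23 (15) for complex IV and 22 (14) for complex V. The rat arrays gave 49 (27), 1 (1), 7 (4), 27 (13) and 17 (10), so that complex II was represented in rat by Sdha alone. The symbols also took in 5 mouse and 10 rat probe sets of genes that are not subunits, namely assembly factors (Ndufaf1, Ndufaf3, Ndufaf4), the ATPase inhibitor Atp5if1, Cox7a2l and the pseudogene Cox6c-ps1. Probe sets annotated with several symbols, 10 in mouse and 6 in rat, were not included.

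Complexes I to IV pass electrons from NADH and succinate to oxygen and pump protons across the inner mitochondrial membrane, and complex V uses the returning protons to make ATP. Complex II (succinate dehydrogenase) is also an enzyme of the tricarboxylic acid cycle and pumps no protons. The subunits named by these symbols are encoded in the nucleus and are made together with a few subunits encoded in mitochondrial DNA; liver is rich in mitochondria and depends on this chain for most of its ATP.

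Each species contributed 16 arrays in 4 groups of 4. Animals of 8 weeks were gavaged on 1 day, or daily over 14 days to an age of 10 weeks, with TCE at 1500 mg per kg body weight in corn oil or with corn oil alone, and liver was taken 18 h after the last dose. The labels name no genetic modification in any group. Whether arrays are separate animals is not stated there, so p-values reflect only how these samples scatter, which may be technical. A deposited value, called relative signal here, is a MAS5 signal over the oil median, where that median was taken from the 4 oil arrays matched for species and schedule. Relative signals hold no expression level, so the tissue could not be checked against the level of its markers, and fewer cells of a type cannot be told apart from less RNA per cell. Members were steadier than other probe sets, with a median within-group SD on the log2 scale of 0.25 against 0.42 for all probe sets in mouse and 0.38 against 0.46 in rat. The log2 ratio of the 3' to the 5' Gapdh control, a sign of shortened RNA, called the Gapdh value here, exceeded 1 on mouse single-dose TCE arrays 1, 3 and 4, mouse repeated-dose oil array 1 and TCE arrays 2 to 4, rat single-dose TCE array 4 and rat repeated-dose TCE arrays 3 and 4. Spiked hybridization controls were low on mouse TCE arrays (mean log2 value -0.74 to -0.53 after 1 dose and -1.30 to -1.03 after repeated doses) and on rat single-dose TCE arrays 1 and 2 (-0.90 and -0.57). They were also low on mouse repeated-dose oil array 4 (-0.64), while oil array 1 of that group stood at 0.61.

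After 1 dose of TCE, mouse liver had lower transcripts of 8 of 100 respiratory chain probe sets and higher transcripts of none (limma adjusted p under 0.05 over all probe sets). Over all probe sets 4.14% were called lower and 4.16% higher. The 8 came from complexes I (Ndufa6, Ndufa9 and Ndufv3), II (Sdha), III (Uqcrh and Uqcr11) and IV (Cox6b2 and Cox8c), and complex V had none among 22. The members' median log2 change was -0.28 against -0.09 for all probe sets, and 76 of 100 members lay below 0 against 57.4% of all probe sets. The medians of complexes I to V were alike, at -0.29, -0.21, -0.23, -0.29 and -0.24.

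Sdha, the flavoprotein subunit of succinate dehydrogenase that oxidises succinate, fell most clearly. Its relative signals were 0.764, 1.09, 0.923 and 1.08 on the oil arrays and 0.450, 0.499, 0.540 and 0.432 on the TCE arrays. Every TCE array lay below every oil array, and the log2 change was -0.995 ± 0.16 (SE, n = 4 and 4, limma adjusted p = 0.00253). The other complex II members were nearer to 0 and did not pass the test: Sdhb, the iron-sulfur subunit, at -0.13, and the membrane anchors Sdhc and Sdhd at -0.29 and -0.14.

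In complex I, Ndufa6, an accessory subunit, gave relative signals of 0.879, 0.970, 1.03 and 1.21 on oil arrays and 0.617, 0.598, 0.697 and 0.503 on TCE arrays. The groups did not overlap, and the log2 change was -0.76 ± 0.16 (limma adjusted p = 0.0119). Ndufv3, a subunit of the NADH-binding module, gave 1.04, 0.902, 0.974 and 1.03 on oil and 0.552, 0.601, 0.581 and 0.615 on TCE arrays, again without overlap. Its change was -0.75 ± 0.20 (limma adjusted p = 0.0360), and that of Ndufa9, an accessory subunit, was -0.64 ± 0.17 (limma adjusted p = 0.0393). Ndufv1, the core subunit that binds NADH, stood at -0.76 without passing the test. The highest and lowest complex I probe sets belonged to Ndufaf1 (161507_f_at, 0.62) and Ndufb6 (161660_r_at, -0.89), neither of which passed.

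In complex III, Uqcrh, the hinge subunit next to cytochrome c1, was even across the oil arrays (1.04, 0.978, 0.991 and 1.01) and lower on the TCE arrays (0.768, 0.592, 0.760 and 0.637). Its log2 change was -0.55 ± 0.14 (limma adjusted p = 0.0260). Uqcr11, a small accessory subunit, fell by 0.76 ± 0.21 on the log2 scale (limma adjusted p = 0.0432), with oil arrays at 1.16, 0.923, 0.971 and 1.03 and TCE arrays at 0.620, 0.667, 0.615 and 0.509. For both genes the groups were apart. Cyc1, which carries the haem of cytochrome c1, gave the highest value of the complex (0.37 on 162469_r_at, not past the threshold).

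Complex IV calls were probe sets of tissue-restricted isoforms known from testis. Cox6b2 (160813_r_at) was at 0.830, 1.04, 1.01 and 0.993 on oil and 0.502, 0.554, 0.685 and 0.485 on TCE arrays, a log2 change of -0.81 ± 0.21 (limma adjusted p = 0.0280). The other Cox6b2 probe sets stood at -1.05 and 0.11 without passing. Cox8c (100965_at) fell by 0.41 ± 0.12 on the log2 scale (limma adjusted p = 0.0478), while its second probe set, 161475_f_at, stood at 0.35. Whether these isoforms are expressed in these livers cannot be read from relative signals. The lowest complex IV value was that of Cox7a1, a muscle isoform, at -1.53, and the highest that of Cox4i1 (102124_f_at), at 0.47. In complex V the range ran from -0.68 (Atp5g2, a ring subunit, 92570_at) to 0.18 (Atp5md).

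Counting arrays alone, 24 of 100 members had all 4 TCE arrays below all 4 oil arrays and 2 had them above, against 9.62% and 7.96% of all probe sets. In complex I this held for 11 of 42 members below and 1 above, the latter being Ndufa8. The count of 8 calls went to 0 under quantile normalization and to 0 without the arrays of Gapdh value above 1, which leaves a lone TCE array whose spread is taken from the other groups. The loss was array-wide, with 0.129% and 0.0725% of all probe sets called lower in those fits. With the Gapdh value as a covariate 2 members were called lower, Sdha and Ndufb3, beside 1.02% of all probe sets. Centring left Sdha, Ndufa6, Uqcrh and Cox6b2 lower and called Cox4i1 (102124_f_at) and Ndufa8 higher, so that calls ran in both directions, and it turned the split over all probe sets from 517 higher and 514 lower to 721 and 355. The count of 8 lower calls became 3 without oil array 1, beside 3.003% of all probe sets called lower. It was 2 without oil array 2, 3 or 4, beside 2.09%, 2.17% and 2.35%. Without TCE array 4 it was 2 beside 2.302%, and without TCE array 1 it was 4 beside 1.88%. Without TCE array 2 or 3 it was 7, beside 5.19% and 2.62%. In the fits without an oil array or TCE array 4, the members' share was thus near that of all probe sets. Sdha and Ndufa6 kept their calls whichever array was left out, Cox6b2 in 3 of 8 such fits, Uqcrh in 2, Ndufa9 and Uqcr11 in 1 each and Ndufv3 and Cox8c in none.

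After 14 days of dosing, 9 of 100 mouse members were called lower and none higher (limma adjusted p under 0.05), beside 8.48% and 2.24% of all probe sets. The share of members called was thus near that of the whole array. The members' median was -0.11 against -0.15 for all probe sets, and 60 of 100 lay below 0 against 61.0%; centring each array on its median turned the members' median to 0.044. Complex medians ran from -0.21 in complex I through -0.12, -0.11 and -0.01 in complexes II to IV to 0.06 in complex V. Members with all 4 TCE arrays below all oil arrays numbered 12, and 2 were above, beside 12.4% and 4.6%.

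Sdha was again low, at 0.978, 1.02, 0.966 and 1.27 on oil arrays and 0.640, 0.505, 0.592 and 0.526 on TCE arrays. The groups were apart, and the log2 change was -0.90 ± 0.16 (SE, n = 4 and 4, limma adjusted p = 0.00440). The values of Sdhb, Sdhc and Sdhd were 0.07, -0.31 and 0.10, with none past the threshold. Uqcrh gave 0.943, 1.05, 0.950 and 1.09 on oil arrays against 0.738, 0.542, 0.622 and 0.555 on TCE arrays. Its change was -0.72 ± 0.14 (limma adjusted p = 0.00720). Ndufa6 gave 1.19, 0.920, 1.01 and 0.988 against 0.819, 0.591, 0.581 and 0.614, with TCE array 1 nearest to the oil arrays. Its change was -0.67 ± 0.16 (limma adjusted p = 0.0201).

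Other complex I calls were Ndufv2, a core iron-sulfur subunit of the NADH-binding module (94062_at, -0.65 ± 0.16), and the assembly factor Ndufaf1 (100892_at, -0.57 ± 0.16). Their limma adjusted p-values were 0.0216 and 0.0324. The lowest member of all was Ndufb2 on 160342_r_at, with oil arrays at 0.902, 1.01, 0.991 and 1.33, TCE arrays at 0.285, 0.557, 0.359 and 0.510 and a change of -1.34 ± 0.32 (limma adjusted p = 0.0193). The other 3 Ndufb2 probe sets stood at -0.35, -0.02 and 0.38, so that this call belongs to a single probe set. The highest complex I value was 0.46 (Ndufb7, 162323_at, not past the threshold).

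In complex IV, Cox6b2 (160813_r_at) fell by 1.19 ± 0.21 on the log2 scale (limma adjusted p = 0.00452), from 0.893, 1.11, 1.29 and 0.824 on oil to 0.334, 0.474, 0.627 and 0.391 on TCE arrays. Its other probe sets stood at 0.79 and -0.09. Cox6c, a nuclear-encoded subunit of the oxidase, was called on 100550_f_at (-0.66 ± 0.15, limma adjusted p = 0.0141) and stood at 1.35 and -0.26 on its other probe sets. The value of 1.35 was the highest of the complex and did not pass the test. Complex V gave its only mouse call here, Atp5a1, the alpha subunit of the ATP synthase head. Relative signals of Atp5a1 were 1.12, 1.05, 0.955 and 0.918 on oil and 0.746, 0.687, 0.831 and 0.798 on TCE arrays, a small but non-overlapping change of -0.40 ± 0.12 (limma adjusted p = 0.0438). Complex V otherwise ran from -0.43 (Atp5mpl) to 0.99 (Atp5g2, 92570_at), and Uqcr11 and Cyc1 (162469_r_at) spanned complex III's other values at -0.68 and 0.91.

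The 9 calls went to 0 under quantile normalization, to 5 after centring and to 3 when only the 8 arrays compared were fitted. Over all probe sets, 0.00805%, 4.07% and 2.52% were called lower in those fits. Centring turned the split from 278 higher and 1053 lower to 475 and 506. Leaving out the arrays of Gapdh value above 1 keeps only TCE array 1 of the TCE group, so no count of calls is given for that fit. Without TCE array 2 there were 5, beside 4.51% of all probe sets called lower. Sdha, Uqcrh, Cox6b2 and Cox6c kept their calls whichever array was left out. Ndufa6 lost its call without TCE array 2 (limma adjusted p = 0.0588), Ndufb2 without oil array 4 (limma adjusted p = 0.0554) and Ndufv2 without oil array 2, TCE array 2 or TCE array 4, while Ndufaf1 kept its call in 2 of 8 such fits and Atp5a1 in none. TCE array 1, where the Gapdh value was -0.36, had a members' median of 0.12, and TCE arrays 2 to 4, with Gapdh values of 1.71, 1.30 and 1.48, had medians of -0.19, -0.22 and -0.11. With the Gapdh value as a covariate the members' median was -0.093, and 10 members were called lower and 1, Cyc1 (162469_r_at), higher, beside 9.68% and 2.42% of all probe sets.

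**Figure D1:**
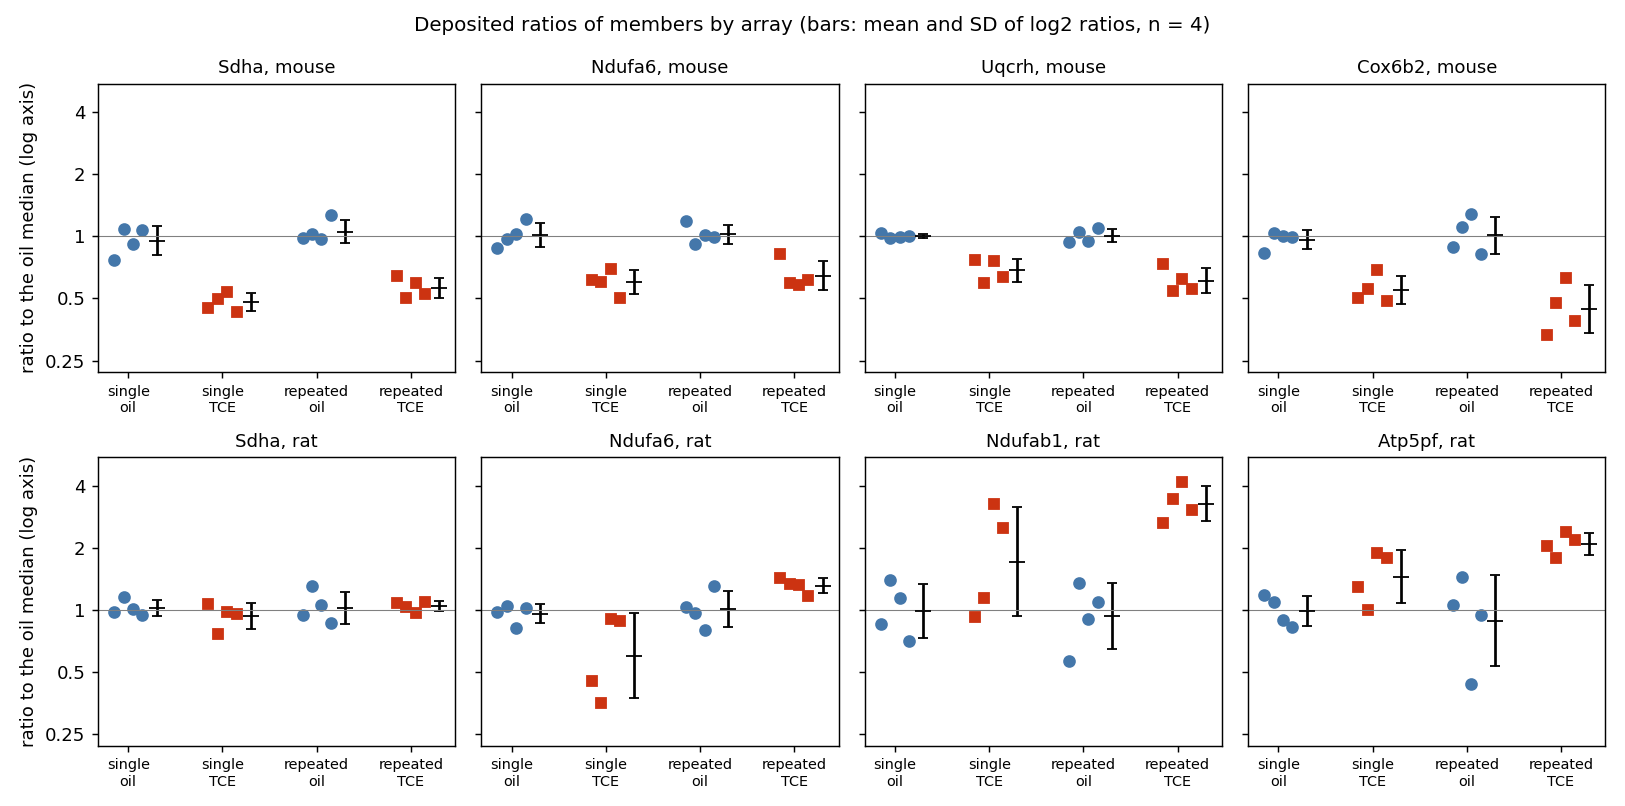
Relative signal (ratio to the oil median, log axis) of 4 mouse and 4 rat probe sets on each array; circles are oil and squares are TCE arrays, and bars give the mean and SD of the log2 ratios (n = 4). Mouse Sdha lies between 0.432 and 0.640 on all TCE arrays, while rat Sdha lies between 0.763 and 1.09 on its TCE arrays, within or near its oil arrays.

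The probe sets called lower under both mouse schedules were those of Sdha, Ndufa6, Uqcrh and Cox6b2 (160813_r_at), 50% of the single-dose and 44.4% of the repeated-dose calls among members. Over all probe sets 200 were called lower under both, 38.9% and 19.0% of the respective calls. The schedules had separate oil groups.

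Promoters of these 4 genes are shown because their transcripts were low under both schedules. They are RefSeq sequences of the mouse build GRCm38.p6, 250 bases before to 50 after the start of the gene, all from the minus strand and read 5' to 3' along the gene: Sdha at chr13:74350191-74350490, Ndufa6 at chr15:82354242-82354541, Uqcrh at chr4:116075021-116075320 and Cox6b2 at chr7:4753045-4753344. Capitals mark matches, searched on both strands, to a core of the NRF1 motif, GCGCNTGCG, or of the ETS motif that GABPA binds, CCGGAAGT.
Sdha: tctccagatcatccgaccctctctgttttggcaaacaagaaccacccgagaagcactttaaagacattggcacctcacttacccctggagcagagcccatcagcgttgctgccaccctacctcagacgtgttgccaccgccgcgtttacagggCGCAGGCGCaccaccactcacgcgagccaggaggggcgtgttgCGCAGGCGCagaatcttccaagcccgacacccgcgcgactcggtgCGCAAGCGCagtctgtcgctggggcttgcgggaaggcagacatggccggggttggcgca
Ndufa6: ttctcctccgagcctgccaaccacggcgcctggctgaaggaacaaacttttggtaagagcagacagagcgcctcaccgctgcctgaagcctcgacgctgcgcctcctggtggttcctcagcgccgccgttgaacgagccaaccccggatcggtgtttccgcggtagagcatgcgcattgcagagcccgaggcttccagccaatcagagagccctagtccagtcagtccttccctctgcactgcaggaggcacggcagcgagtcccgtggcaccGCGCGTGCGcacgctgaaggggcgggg
Uqcrh: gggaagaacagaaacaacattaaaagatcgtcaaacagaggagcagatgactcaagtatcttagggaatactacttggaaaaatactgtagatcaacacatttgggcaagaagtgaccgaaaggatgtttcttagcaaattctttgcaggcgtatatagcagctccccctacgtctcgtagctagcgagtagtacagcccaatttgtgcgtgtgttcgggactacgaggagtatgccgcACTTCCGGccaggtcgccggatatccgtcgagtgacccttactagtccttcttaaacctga
Cox6b2: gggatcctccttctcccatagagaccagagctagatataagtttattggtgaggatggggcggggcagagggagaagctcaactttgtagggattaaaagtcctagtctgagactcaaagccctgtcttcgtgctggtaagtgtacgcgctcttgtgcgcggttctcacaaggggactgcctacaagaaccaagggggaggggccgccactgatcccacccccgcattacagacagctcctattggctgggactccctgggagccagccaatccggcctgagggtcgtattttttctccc
The Sdha promoter held 3 NRF1 matches, that of Ndufa6 1, and that of Uqcrh 1 ETS match; that of Cox6b2 held 0 matches to the motifs searched. Of 63 promoters found for 58 of the 72 mouse genes, 31.7% held the NRF1 letters against 6.31% of 32851 mouse promoters, 6.35% against 3.89% the ETS letters and 12.7% against 4.05% the YY1 core ATGGCGG. NRF1, GABPA and YY1 are regulators known for respiratory chain genes. A match is a description of letters and not a measured site, and among 10 called mouse genes with a promoter 3 held the NRF1, 2 the ETS and 1 the YY1 letters.

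In rat liver after 1 dose, 1 of 101 members was called lower and none higher, beside 0.503% and 1.21% of all probe sets (limma adjusted p under 0.05). The call was Ndufb6, an accessory complex I subunit, on rc_AI104528_at. Its relative signals were 1.04, 1.21, 0.954 and 0.956 on oil arrays and 0.544, 0.515, 0.799 and 0.649 on TCE arrays, a change of -0.75 ± 0.17 (SE, n = 4 and 4, limma adjusted p = 0.0466) without overlap. The other Ndufb6 probe set stood at 0.33.

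As a whole, however, the rat members lay lower than the array after 1 dose. Their median log2 change was -0.36 while that of all probe sets was 0.14, and 77 of 101 were below 0 against 39.2% of all probe sets. Medians by complex were -0.41, -0.23, -0.54 and -0.28 in complexes I, III, IV and V, and Sdha stood at -0.13. Members with all 4 TCE arrays below all oil arrays numbered 18, or 17.8%, and none was above, beside 3.72% and 8.79% of all probe sets.

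This shift was carried mostly by 2 of the 4 TCE arrays. The members' median was -0.57 and -0.73 on TCE arrays 1 and 2 but -0.05 and -0.13 on arrays 3 and 4, whereas the median of all probe sets was 0.15, 0.15, 0.15 and 0.06. Arrays 1 and 2 were also those with low hybridization controls, and the part of this difference between arrays in the result was not tested. Both Ndufa6 probe sets showed it: rc_AA819547_at gave 0.452, 0.356, 0.908 and 0.890 on the TCE arrays and rc_AI229924_at gave 0.362, 0.336, 1.26 and 1.21. Without arrays 1 and 2 the members' median was -0.086, the call was lost, and complex medians were -0.076, 0.25, -0.32 and -0.082 in complexes I, III, IV and V.

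Complex IV, cytochrome c oxidase, held 10 of the 18 rat probe sets whose groups were apart, out of 27, and none was called. All 3 probe sets of Cox4i1, the widely expressed form of subunit 4, were among them, at -0.76, -0.57 and -0.55 (limma adjusted p = 0.0903, 0.131 and 0.0909). On X54081mRNA_i_at, Cox4i1 gave 0.878, 1.14, 0.860 and 1.12 on oil and 0.683, 0.584, 0.783 and 0.671 on TCE arrays, so all 4 TCE arrays were low. The rest were 2 probe sets each of Cox6a1, Cox6b1 and Cox8a, which are the common liver forms of their subunits, and 1 of Cox7a2l, between -0.94 and -0.62. Without TCE arrays 1 and 2, 19 of the 27 complex IV probe sets remained below 0. The complex ran from -1.16 (Cox8b, U40836mRNA_s_at) to 0.63 (Cox6a2, X72758mRNA_at), both of muscle isoforms. In complex I the range was -1.07 (Ndufb2) to 0.83 (Ndufs1, the largest iron-sulfur subunit), in complex III -0.83 (Uqcr11, rc_AA892462_at) to 0.64 (Uqcrc2) and in complex V -0.87 (Atp5f1e, rc_AI171844_at) to 0.55 (Atp5pf, X54510_g_at), with none of these past the threshold.

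The Ndufb6 call was lost under quantile normalization and whenever an array other than TCE array 3 was left out. No member was then called without oil array 1, 2 or 4 or TCE array 1, 2 or 4, and Uqcr11 (rc_AA892462_at) alone was called, lower, without oil array 3. Without TCE array 3 there were 6 calls, all lower, 3 of them probe sets of Cox8a. The share of all probe sets called in that fit is not set beside this count, which is not read as a result about the members. With the Gapdh value as a covariate, with array weights or without the 40% most variable probe sets there were 10 calls, all lower, beside 1.02%, 1.69% and 3.36% of all probe sets tested called lower in those fits. After centring there were 5, all lower, beside 1.22%; centring also turned the split over all probe sets from 106 higher and 44 lower to 77 higher and 107 lower.

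After 14 days, rat members were called higher in 2 of 101 cases and lower in none, beside 2.16% and 0.652% of all probe sets (limma adjusted p under 0.05). Ndufab1, the mitochondrial acyl carrier protein that is also a complex I subunit, gave 0.569, 1.35, 0.906 and 1.09 on oil and 2.63, 3.45, 4.19 and 3.05 on TCE arrays (AA799336_at). The groups were far apart, with a log2 change of 1.81 ± 0.39 (SE, n = 4 and 4, limma adjusted p = 0.0218). Its other probe sets stood at 0.41 and 0.56 without passing. Atp5pf, coupling factor 6 of the ATP synthase stalk, gave 1.06, 1.44, 0.437 and 0.944 on oil and 2.04, 1.78, 2.39 and 2.19 on TCE arrays (X54510_g_at). Its change was 1.23 ± 0.31 (limma adjusted p = 0.0490), and its second probe set stood at 0.47.

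The members' median was 0.11 against 0.04 for all probe sets, with 33 of 101 below 0 against 46.4%. Complex III had the highest median, 0.55 over 7 probe sets, followed by complex V at 0.22, complex I at 0.13 and complex IV at -0.02. Sdha stood at 0.02, with oil arrays at 0.946, 1.30, 1.05 and 0.862 and TCE arrays at 1.08, 1.03, 0.969 and 1.09. The groups of Sdha overlapped.

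In complex III the Rieske iron-sulfur protein Uqcrfs1 stood at 0.76, 0.55 and 0.71 on its 3 probe sets (limma adjusted p = 0.193, 0.167 and 0.110). On rc_AI103911_at its relative signals were 0.958, 0.917, 1.04 and 1.38 on oil and 1.56, 1.58, 1.65 and 2.19 on TCE arrays, which did not overlap. Uqcrc2, a core subunit, was the highest at 1.02 (limma adjusted p = 0.0930), with oil arrays spread from 0.480 to 1.56 and TCE arrays from 1.69 to 2.33. Uqcr11 was the lowest (-0.33 on rc_AA892462_at). Members with all TCE arrays above all oil arrays numbered 11, with 3 in complex III and 4 in complex V, and 5 were below, beside 7.52% and 4.78% of all probe sets. Complex I ran from -0.68 (Ndufs8, rc_AA851379_at) to the 1.81 of Ndufab1, complex IV from -1.09 (Cox6a1, X72757_at) to 1.22 (Cox7b), and complex V from -0.54 (Atp5f1e, rc_AI171844_at) to the 1.23 of Atp5pf.

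Gapdh values on the 4 TCE arrays were 0.33, 0.82, 2.07 and 1.60, and the members' medians were -0.06, 0.13, 0.37 and 0.13. With the Gapdh value as a covariate the members' median was -0.061 and no member was called; the part of RNA quality was not tested further. Both calls were also lost under quantile normalization and without the arrays of Gapdh value above 1. Under those 2 settings, 0.0801% and 1.02% of all probe sets were called higher, and 0.664% with the covariate. Atp5pf kept its call only without oil array 2, where Ndufa8 and Uqcrc2 were called too, 4 members in all. The share of all probe sets called in that fit is not set beside this count, which is not read as a result about the members. Ndufab1 lost its call without oil array 1 or 3 or TCE array 2 and was the 1 call without oil array 4 or TCE array 1, 3 or 4. No member was called without oil array 3 or TCE array 2, and without oil array 1 the 1 call was Ndufa8 (rc_AI232012_at).

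**Figure D2:**
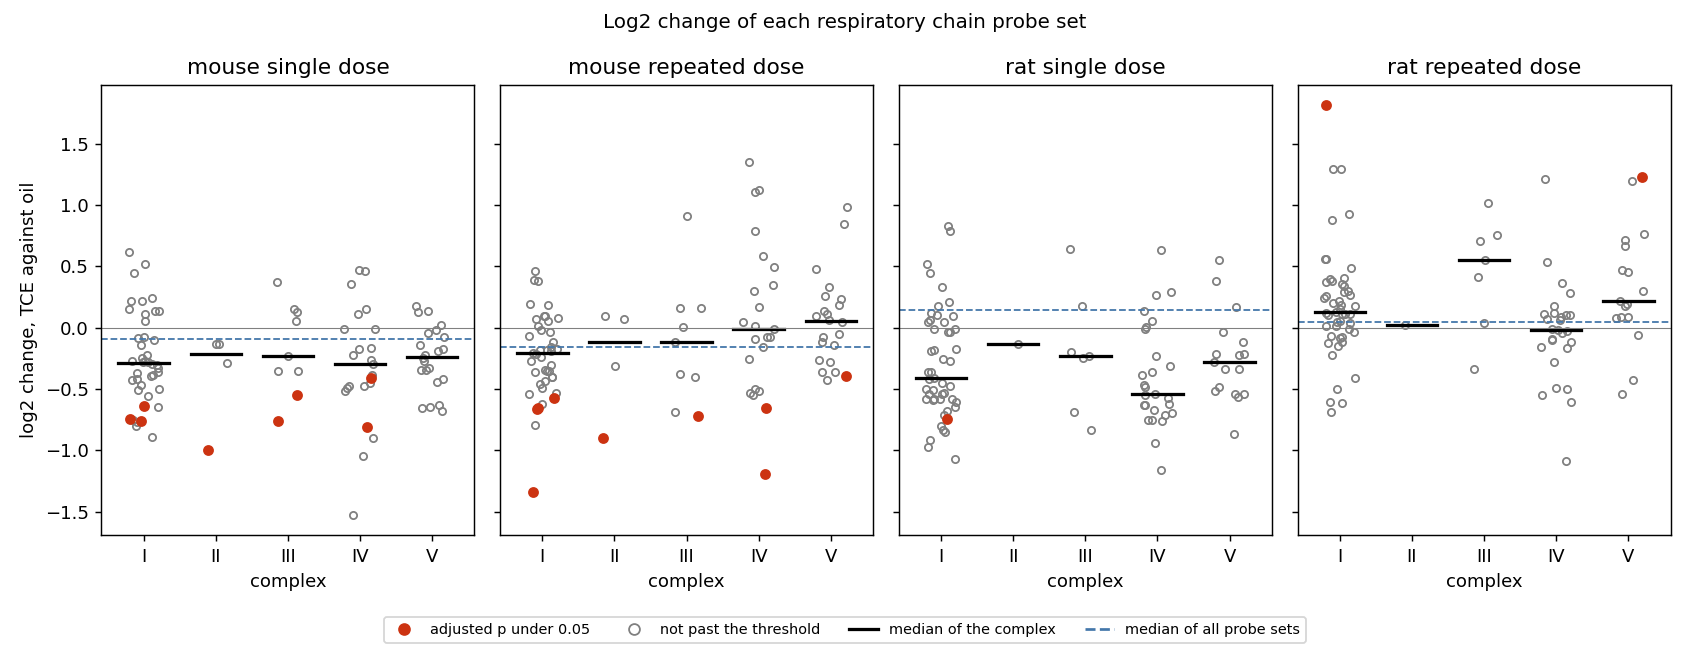
Log2 change, TCE against oil, of every member probe set by complex in the 4 comparisons; red points passed the adjusted p of 0.05, black bars are complex medians and the dashed line is the median of all probe sets. Mouse calls lie below 0 (8 and 9 probe sets), the rat single-dose members lie mostly under the array's median of 0.14, and the 2 rat repeated-dose calls lie above 0.

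**Figure D3:**
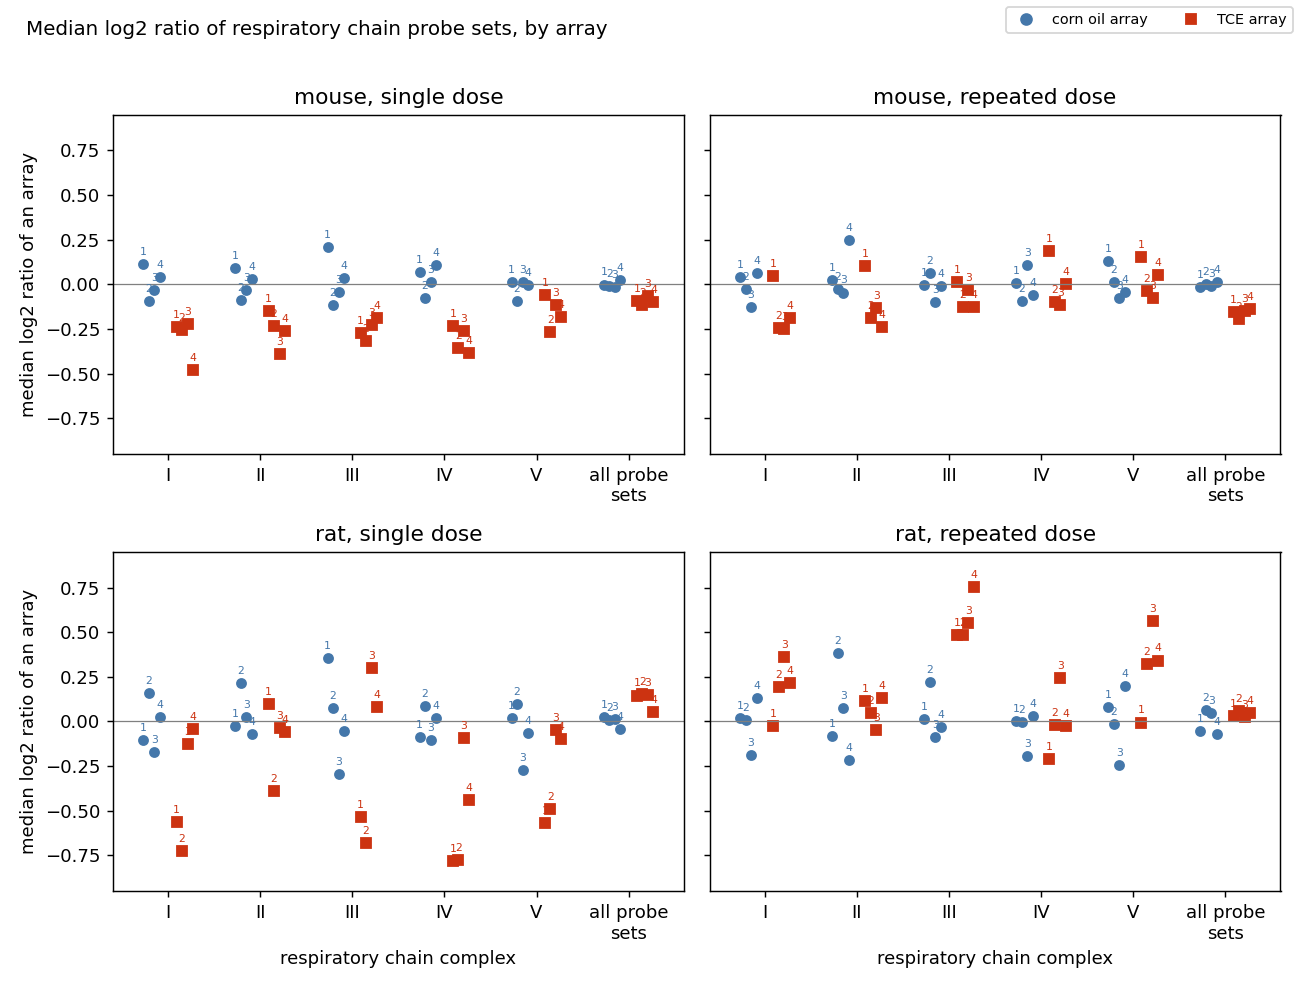
Median log2 relative signal of the members of each complex, and of all probe sets, on every array; circles are oil arrays, squares are TCE arrays and the numerals are array numbers. Rat single-dose TCE arrays 1 and 2 lie lowest in complexes I, III, IV and V, and the 4 rat repeated-dose TCE arrays lie above all oil arrays in complex III.

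The effects of the schedules were compared directly as the repeated-dose minus the single-dose change. No member was called in either species (limma adjusted p under 0.05), beside 0.877% of mouse probe sets and 0% of rat probe sets. At an unadjusted p under 0.05 there were 7 mouse members, 7% beside 18.8% of all probe sets, and 23 rat members, 22.8% beside 9.36%. In rat the difference had a median of 0.53 over members against -0.06 over all probe sets. Of 101 members 84 were above 0, while 53.6% of all probe sets were below 0. The 84 included all 17 probe sets of complex V (10 genes, the inhibitor Atp5if1 among them) and all 7 of complex III (4 genes). Without rat single-dose TCE arrays 1 and 2 the median was 0.25 with 82 of 101 above 0. In mouse the median was 0.14 against -0.09, with complex IV highest at 0.39.

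The mouse and rat changes were compared gene by gene over 3056 symbols shared by the arrays, of which 36 were members. After 1 dose 2 of 36 differed (limma adjusted p under 0.05), 5.56% beside 4.22% of all shared genes, and after repeated doses 3 of 36, 8.33% beside 10.5%. Neither share was far from that of all genes.

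Sdha differed under both schedules, with a mouse minus rat difference of -0.86 ± 0.21 after 1 dose (limma adjusted p = 0.0196, over 4 arrays per group) and -0.92 ± 0.21 after repeated doses (limma adjusted p = 0.00574). The own-species changes of Sdha were -0.995 and -0.90 in mouse and -0.13 and 0.02 in rat, each from the only probe set of the gene. The repeated-dose difference kept its call after centring, with the Gapdh covariate and with only the groups compared (limma adjusted p = 0.0289, 0.0194 and 0.0279). The single-dose difference missed the threshold under each of these (limma adjusted p = 0.0666, 0.0912 and 0.0559), and centring then called 3 members, all higher in mouse relative to rat. Both differences kept their calls whichever array was left out. Ndufa6 differed after repeated doses by -1.04 ± 0.31 (limma adjusted p = 0.0320), with -0.67 in mouse and 0.37 in rat, where rc_AA819547_at gave 1.44, 1.33, 1.32 and 1.17 on TCE arrays, 3 of them just above the highest oil array at 1.31. The Ndufa6 difference lost its call after centring, with the Gapdh covariate and with probe sets averaged per gene (limma adjusted p = 0.114, 0.194 and 0.0966). It kept the call with only the groups compared (limma adjusted p = 0.0239) but lost it when some single arrays were left out. After 1 dose the Ndufa6 changes were -0.76 and -0.68.

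Cox7b, a small subunit of complex IV, differed after repeated doses by -1.75 ± 0.58 (limma adjusted p = 0.0499), with -0.53 in mouse and 1.22 in rat. Its rat oil arrays were 0.993, 1.56, 1.01 and 0.161, so 1 low oil array entered the mean, and the TCE arrays were 1.73, 1.64, 1.81 and 1.43. Without that oil array the Cox7b difference was -1.04 (limma adjusted p = 0.0578). The call was also lost after centring and with only the groups compared (limma adjusted p = 0.0856 and 0.138), and kept with the Gapdh covariate (limma adjusted p = 0.0417). Cox4i1 differed after 1 dose by 1.02 ± 0.21 (limma adjusted p = 0.00548), with 0.47 in mouse on 102124_f_at and -0.55 in rat. The second mouse Cox4i1 probe set stood at -0.17, and when probe sets were averaged per gene 1 single-dose call, of the lower kind, was left. Uqcrc2 and Ndufa8 came close after repeated doses, at -1.42 and -1.11 (limma adjusted p = 0.0512 and 0.0521).

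No species difference among members passed under quantile normalization. Leaving out the arrays of Gapdh value above 1 keeps a lone mouse TCE array per schedule, so no call is given for that setting. After repeated doses 1 was left without mouse oil array 1, mouse TCE array 2 or rat TCE array 2, and 5 were called without rat oil array 2. The shares of all shared genes called in those fits are not set beside these counts, which are not read as results about the members. With RefSeq synonyms, which join most complex V names, 42 genes could be set side by side. After 1 dose 25 of them lay below 0 in both species and 2 above 0 in both. After repeated doses 5 lay below 0 in both, 10 above 0 in both, and 23 below 0 in mouse but above 0 in rat. Over all probe sets, 57.4% in mouse and 39.2% in rat lay below 0 after 1 dose. After repeated doses these shares were 61.0% and 46.4%. The joint split over all shared genes was not counted. The medians were -0.26 in mouse and -0.34 in rat after 1 dose, and -0.20 and 0.15 after repeated doses.

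**Figure D4:**
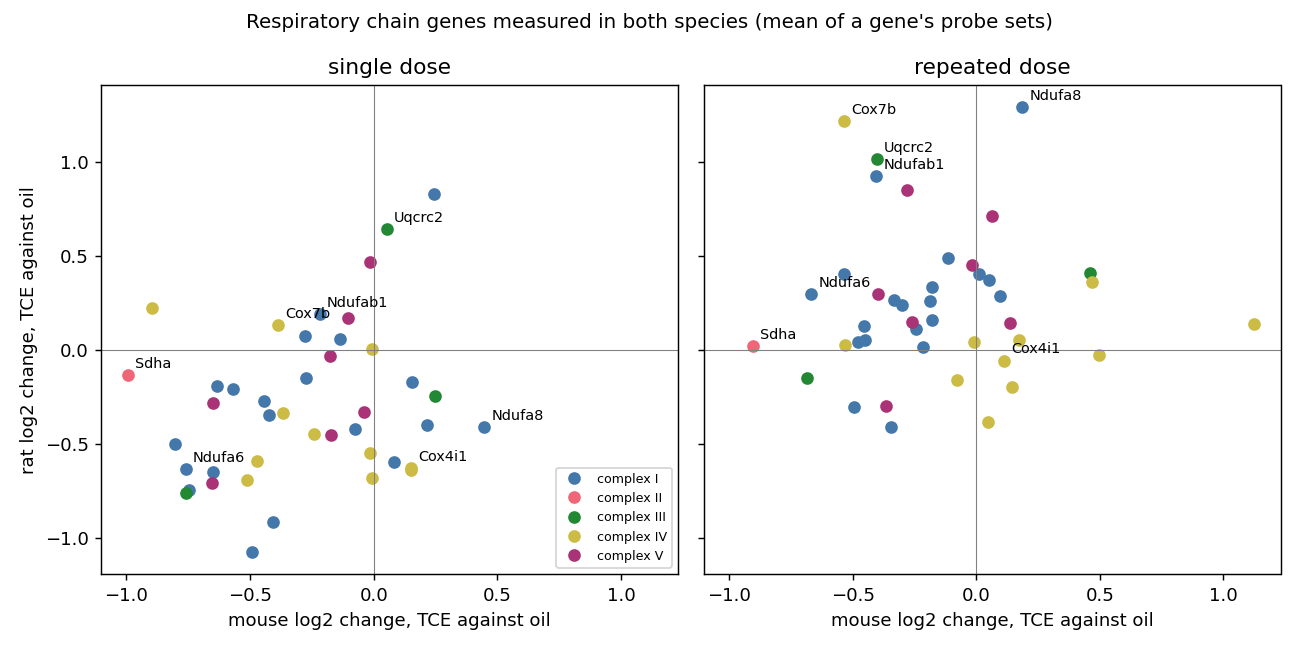
Log2 change in mouse (horizontal) against rat (vertical), TCE against oil, for the 42 genes matched between species, each the mean of its probe sets, with colours for complexes. After repeated doses 23 genes sit in the upper left of the panel, below 0 in mouse and above 0 in rat. Of all probe sets, 61.0% in mouse and 46.4% in rat lay below 0 after repeated doses. Sdha lies far left at a rat value near 0 in both panels.

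Genes with several probe sets often disagreed. Of 21 such mouse genes, 11 had all probe sets on the same side of 0 after 1 dose and 12 after repeated doses, and of 28 such rat genes 18 and 12. No gene was called in opposite directions, and no gene with several probe sets had all of them called.

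Other genes of the pathway, from lists of electron carriers, chain assembly factors, ATP export, uncoupling, the tricarboxylic acid cycle, biogenesis regulators, mitochondrial translation and mitochondrial chaperones, gave calls in both directions. Of 90 mouse probe sets for 65 genes, 6 were called higher and 5 lower after 1 dose and 1 higher and 6 lower after repeated doses (limma adjusted p under 0.05). As shares these were 6.67% and 5.56%, then 1.11% and 6.67%, near the 4.16% and 4.14%, then 2.24% and 8.48%, of all probe sets. Of 54 rat probe sets for 35 genes, 1 and then 2 were called higher, 1.85% and 3.70% beside 1.21% and 2.16%, and none lower. The genes below are named as single calls and not as a change of their lists. Ogdh, of the 2-oxoglutarate dehydrogenase step of the cycle, fell in mouse under both schedules, by 0.72 and 0.69 on the log2 scale. Suclg2, a subunit of the succinyl-CoA synthetase that precedes Sdha in the cycle, fell in mouse after 1 dose by 0.74. Rat Suclg1 rose after repeated doses by 0.88 on a single probe set, while its other probe set was not called. Cycs, cytochrome c, which carries electrons from complex III to IV, fell in mouse after repeated doses by 0.85. Its list of electron carriers had 2 probe sets called lower in that comparison and none higher. The list also had 1 call higher after 1 dose in mouse and 1 higher in rat under each schedule, with none lower. Slc25a5, an ADP/ATP carrier, fell after 1 dose on 2 probe sets (-0.58 and -0.70) and stood at 0.68 on another. The ATPase inhibitor, named Atpif1 on the mouse array and Atp5if1 on the rat array, rose in mouse after repeated doses by 0.54 and ranged from -0.43 to 1.2 on 4 rat probe sets, none past the threshold.

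Regulators and quality-control genes gave further calls in mouse. Gabpa and Yy1 fell after repeated doses, by 0.80 and 0.98, each on a single probe set, while another probe set of the same gene was not called. Ppara, the fatty acid sensing receptor, rose after 1 dose by 0.56. The mitochondrial chaperones Hspe1 and Hspa9 and the protease Clpp rose after 1 dose by 0.83, 0.60 and 0.73, and Lrpprc, which stabilises mitochondrial messenger RNA, by 0.72. Tsfm, a mitochondrial elongation factor, fell by 0.98.

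Markers of some liver cell types moved beside the members, while the array medians of others overlapped between TCE and oil. All 7 mouse hepatocyte marker probe sets were below 0 under both schedules, 2 of them called lower each time, and the per-array medians were -0.54 to -0.25 on single-dose TCE arrays against -0.14 to 0.10 on oil and -0.50 to -0.34 against -0.23 to 0.27 after repeated doses. In rat 14 of 25 hepatocyte probe sets were below 0 after 1 dose, 3 being called higher, and 10 after repeated doses. Their medians were -0.16 to -0.11 on single-dose TCE arrays against -0.21 to 0.08 on oil, and -0.05 to 0.12 against -0.10 to 0.05 after repeated doses. Mouse Kupffer cell and macrophage medians were -0.55 to -0.26 on single-dose TCE arrays against -0.16 to 0.12 on oil and -0.49 to -0.37 against -0.46 to 0.11 after repeated doses, when 3 of 13 probe sets were called lower and 1 higher. Rat Kupffer medians after repeated doses were -0.71 to -0.51 against -0.25 to 0.30. After 1 dose the rat Kupffer ranges overlapped, at -1.17 to -0.20 on TCE against -0.56 to 0.41 on oil arrays. Mouse endothelial medians were -0.38 to -0.23 against -0.063 to 0.048 after 1 dose and -0.52 to -0.24 against -0.26 to 0.13 after repeated doses. Rat endothelial medians were 0.0058 to 0.99 against -0.27 to 0.23 after 1 dose and -0.53 to 0.31 against -0.30 to 0.30 after repeated doses. All 11 stellate cell marker probe sets were below 0 after 1 dose in each species. TCE array medians were -1.15 to -0.42 against -0.30 to 0.27 on oil in mouse, and -0.75 to -0.30 against -0.29 to 0.49 in rat. After repeated doses 6 of the 11 were below 0 in mouse and 8 in rat. Of the lymphocyte probe sets, 5 of 8 in mouse were below 0 after 1 dose, while all 6 in rat were above 0. After repeated doses 5 of 8 in mouse were below 0 and 4 of 6 in rat were above 0. Cholangiocyte and erythroid array medians overlapped between TCE and oil in every comparison. No cholangiocyte probe set was called, and 1 of 3 mouse erythroid probe sets was called lower under each schedule. Of 11 mouse muscle marker probe sets, which bear on the muscle isoforms Cox6a2, Cox7a1 and Cox8b, 9 were below 0 after 1 dose and 6 after repeated doses. In rat 4 of 6 muscle marker probe sets were below 0 under each schedule. The part of cell composition in the members' values was not tested.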

How the data were processed

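Liver RNA of 16 mouse and 16 rat samples was hybridised to Affymetrix arrays. Signals were made with MAS5, per the submitters' processing notes; no version is recorded there. The deposited values are ratios: in each species and schedule the 4 oil arrays have a median of 1, within 0.0005, for every complete probe set, which was found from the values. The scaling before that division is not given in the sources used.

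Gene symbols came from the platform annotation, which named 10833 of 12422 mouse and 7006 of 8740 rat probe sets by 1 symbol. The members and the lists of other genes were chosen with earlier results of these data known. Group means of log2 ratios were estimated by lmFit and eBayes of limma 3.58.1 (R 4.3.3; 16 arrays per species, 32 for species differences), and p-values were adjusted by Benjamini-Hochberg over all probe sets or shared genes, with a threshold of 0.05, two-sided. For species differences each gene was represented by its least variable probe set within groups. The fit was tested on simulated data. No 2 arrays of a group shared more than 0.00225 of their values, and each was counted once. All members had values on all arrays, and no filter was used. The number of arrays limits the precision.

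Members named in full are up to 6 rises and 6 falls past the threshold per comparison, up to 3 each way for differences of effects, and the highest and lowest of each complex, with up to 4 called genes per list of other genes. Members beyond this rule (core or well-known subunits, probe sets whose arrays were apart) were chosen after their values were seen, as were the motif letters; the NRF1 core was first searched with 1 more letter, and the shortening raised the share of promoters matched among members and among all genes. Alternatives were quantile normalization, centring, log2(ratio + 1), fewer arrays in the fit, array weights, a replicate block, the Gapdh value as a covariate, leaving out arrays or variable probe sets, and other choices of members. Plots: matplotlib 3.10.9 under Python 3.11.15.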

Additional observations from a re-analysis of the deposited data

Results flagged for a closer look

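In 5 of 84 groups of 4 arrays examined, 1 array stood far from the other 3, about the share that chance gives (1 in 20). These were mouse single-dose oil array 2 in the complex V median (-0.095), mouse single-dose TCE array 4 in the complex I median (-0.48) and rat repeated-dose oil array 3 in the complex IV median (-0.20). Among called members they were Cox8c on mouse single-dose TCE array 3 (log2 value -0.51) and Ndufa6 on mouse repeated-dose TCE array 1 (log2 value -0.29).

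The effects of TCE differed between mouse and rat for Cox4i1 (1.02) and Sdha (-0.86) after 1 dose and for Cox7b (-1.75), Ndufa6 (-1.04) and Sdha (-0.92) after repeated doses, each a mouse minus rat difference of log2 changes past the adjusted threshold in limma.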

How the results depend on the processing

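No called probe set reversed its direction under any alternative run, but other member probe sets were called higher in mouse under some. These included Cox6c on 100551_r_at, while 100550_f_at of the same gene was called lower in the main fit. Quantile normalization left 0 calls in all 4 TCE comparisons and both species comparisons. Leaving out the arrays of Gapdh value above 1 left 0 calls in both rat comparisons, with fewer arrays. In mouse that setting keeps a lone TCE array per schedule, so no count is given there or between species. Otherwise the cause was not tested. In the order mouse single, mouse repeated, rat single and rat repeated dose, calls of 8, 9, 1 and 2 became 5, 3, 0 and 1 with only the groups compared. In the mouse fits of that setting 3.03% and 2.52% of all probe sets were called lower. Counts in this section with no share of all probe sets or shared genes beside them are not read as results about the members. Centring gave 6 after mouse single (2 higher, 4 lower), 5 after mouse repeated, 5 after rat single and 1 after rat repeated dose. The Gapdh covariate gave 2 after mouse single, 10 after rat single and 0 after rat repeated dose. The covariate gave 11 after mouse repeated dose. Array weights gave 13 after mouse single (1 higher, 12 lower) and 10 after rat single dose. In that mouse fit 5.71% of all probe sets were called higher and 6.46% lower. Without the 40% most variable probe sets there were 15 after mouse single (2 higher, 13 lower), 10 after rat single and 6 after rat repeated dose, and 1 between mouse schedules. That mouse single-dose fit tested 78 members, and 9.69% of its 7453 probe sets were called higher and 10.7% lower. Log2(ratio + 1) gave 4 after rat repeated dose, members without a suffix letter in the probe set name gave 1 there, and leaving out rat single-dose TCE arrays 1 and 2 gave 0 after rat single dose. The last 2 were chosen after seeing the data.

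The species differences, 2 and 3, became 1 after single dose with only the groups compared, with the Gapdh covariate or with probe sets averaged per gene, and 3, all higher, with centring. After repeated doses they became 1 with centring and 5 with log2(ratio + 1). Synonym-matched symbols, also added after seeing the data, gave 2 and 4.

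The labels number replicates alike in all groups, but same-numbered arrays did not deviate together (correlations from -0.17 to 0.08), so the numbers do not pair them. With a replicate block there were 1, 2, 0 and 0 calls in the 4 TCE comparisons and 0 and 1 in the species comparisons. The mouse single-dose call was Sdha, lower. The mouse repeated-dose calls were Cox6b2 (160813_r_at), lower, and Cox6c (100551_r_at), higher, while Sdha, Uqcrh and Ndufa6 lost theirs. Over all probe sets 0.604% were called lower and 0.926% higher after mouse single dose, and 1.68% and 0.443% after mouse repeated dose.

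The members' median moved beyond the replicate spread in mouse single dose, from -0.28 to -0.14 with quantile normalization and -0.18 with centring. In mouse repeated dose it moved from -0.11 to 0.043 with quantile normalization and 0.044 with centring. Without the arrays of Gapdh value above 1 it was 0.10, but that fit keeps only TCE array 1 of the TCE group. In rat repeated dose the members' median moved from 0.11 to -0.061 with the Gapdh covariate. In rat single dose it moved from -0.36 to -0.086 without TCE arrays 1 and 2. Log2(ratio + 1) gave -0.13 after mouse single dose, which its smaller slope near a ratio of 1 sets. Leaving out each array in turn gave 2 to 7, 5 to 11, 0 to 6 and 0 to 4 calls in the 4 TCE comparisons, 0 to 0 between schedules in each species, and 2 to 3 and 1 to 5 between species. The members' medians then ranged from -0.32 to -0.25, -0.17 to -0.05, -0.49 to -0.26 and 0.06 to 0.22.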
